A study of Mus musculus with 4 samples.

Results

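The genes described here move retinol, the alcohol form of vitamin A, and make, carry, sense and destroy retinoic acid. They are Rbp4, Ttr, Stra6, Rdh10, Aldh1a2, Crabp2, Rara, Rxra and Cyp26a1, taken as every array probe whose platform symbol is one of these names, which gave 12 probes of 9 genes among 19057 named genes. Retinol travels bound to retinol-binding protein, encoded by Rbp4, in a complex with transthyretin, encoded by Ttr, and can enter cells through the membrane receptor STRA6. Inside the cell RDH10 oxidises retinol to retinaldehyde and ALDH1A2 oxidises retinaldehyde to retinoic acid, which CRABP2 carries to heterodimers of RAR and RXR receptors in the nucleus and CYP26A1 breaks down. In the mouse yolk sac the visceral endoderm secretes retinol-binding protein and transthyretin, and retinoic acid is known to be needed for the normal development of yolk sac vessels.

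Total RNA of C57BL/6 mouse yolk sacs at embryonic day 9.5 was measured on Illumina bead arrays, on which the fluorescence of beads with a short probe reads a transcript. There were 2 arrays labelled Flk1Cre;ETV2 CKO, named Mut in the descriptions, and 2 labelled control, named WT there. The ETS-family factor ETV2, on which endothelial and blood cells depend, was targeted by deletion of its gene with Cre and loxP in cells that carry FLK1, the receptor encoded by Kdr. The deletion note stands on the labels of all 4 samples, so it is not known whether the control samples carried the Cre or loxP alleles, and pooling of yolk sacs is not stated. The comparison asks how yolk sac transcripts differ between samples of these 2 labels.

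Each array had 17934 to 18798 of its 45281 probes above background, meaning a detection p under 0.05 against negative control beads. A gene was tested, with limma, where a probe was above background on at least 2 of the 4 arrays, which left 10603 genes. The Etv2 probe read 206 and 227 in CKO-labelled yolk sacs, against 157 and 177 in control yolk sacs, a log2 difference of 0.46 ± 0.10 (SE, n = 2 a group; limma adjusted p = 0.0199). This goes against a loss of Etv2 transcript in the samples labelled CKO; a probe that lies outside the deleted stretch would check nothing, and its position was not settled here. Whether the labels of the groups were exchanged was not tested either. All directions below are therefore those of CKO-labelled over control-labelled arrays. The call on Etv2 was lost when either CKO array or control replicate 1 was left out, and on the authors' processed values. Both Kdr probes were below background on all 4 arrays. On the log2 scale Xist differed by 1.05 and the Y-linked Eif2s3y by -0.73 (limma adjusted p = 0.00188 for Xist and 0.00566 for Eif2s3y), so the sex make-up of the samples and the group cannot be told apart. Separate embryos or litters are named on no label, and the p-values therefore measure how far these samples vary, possibly for technical reasons alone.

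Cyp26a1, the gene of the enzyme that degrades retinoic acid, was 2.31-fold higher on the CKO-labelled arrays, and Crabp2, the gene of the intracellular retinoic acid carrier, was 2.24-fold higher. The retinol carrier genes Rbp4 and Ttr, the dehydrogenase gene Rdh10 and the receptor gene Rxra did not pass the test, with log2 differences between -0.05 and 0.29. Stra6, Aldh1a2 and Rara were not above background on enough arrays to be tested. Of the 6 tested genes 2 were higher and 0 lower at an adjusted p under 0.05, where 14.4% of all tested genes were higher and 10.8% lower. Their median log2 difference was 0.22, beside 0.02 over all tested genes. It was 0.068 with CKO replicate 1 left out and 0.38 with CKO replicate 2 left out. The groups did not overlap for 3 of the 6, while they did not overlap for 65.4% of all tested genes, so that count says little about these genes. Both calls fell among the 4 tested genes that handle or sense retinoids inside cells, and neither among the 2 tested carrier genes; a difference between these sets was not tested.

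**Figure D1:**
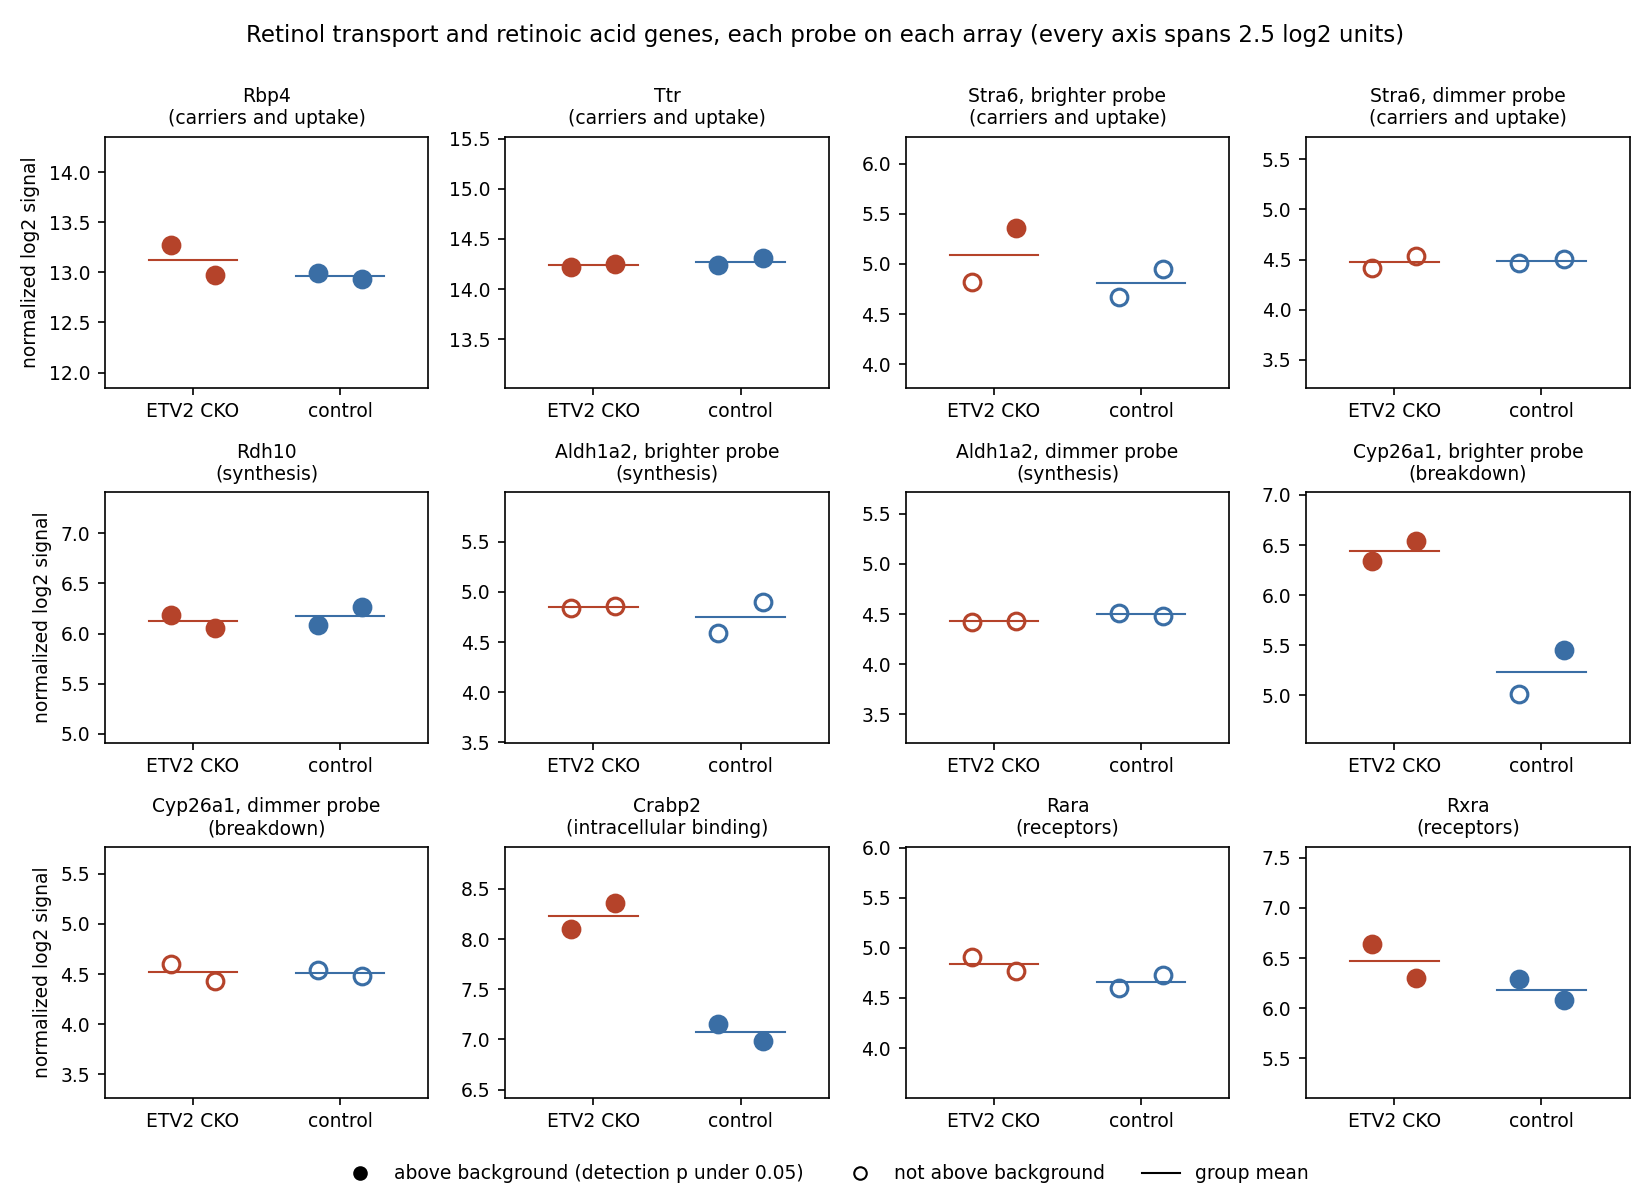
Normalized log2 signal of each of the 12 probes on the 2 ETV2 CKO arrays and the 2 control arrays, with filled points above background, open points not above background and lines at the group means. The Crabp2 probe and the brighter Cyp26a1 probe are higher on each CKO-labelled array than on either control array, while the Rbp4, Ttr and Rdh10 values of the groups overlap.

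Cyp26a1 is a known direct target of retinoic acid receptors, which bind repeats of a 6-base unit in its promoter. RefSeq promoter windows of GRCm38.p6, from 250 bases before to 50 after each annotated start, were therefore searched on both strands for direct repeats. A repeat was a pair of units, each spelled AGGTCA or AGTTCA or GGGTCA or GGTTCA, with 5, 2 or 1 bases between them. A window was at hand for 6 of the 9 genes, and it held a repeat with 5 bases between the units for 1 of them, Cyp26a1. Among the other listed genes of the retinoid pathway, 52 of 72 had a window and 1 held such a repeat, the receptor gene Rarb. Over all 32851 windows 0.0974% held one, and of the 27025 genes with a window 0.115% did. Repeats with 2 bases between the units stood in 0.268% of all windows and those with 1 base in 0.222%. Neither stood in a window of the 6 genes that had one. Ttr, Rdh10 and Crabp2 had no window, so the called gene Crabp2 was not searched. The pathway genes Hoxb5, Lefty1, Ripply3 and Rarres2, called below, had none either. A match is a description of these letters and not a measured binding site.

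The windows of Cyp26a1 (chr19:37697558-37697857, plus strand) and Rarb (chr14:16575427-16575726, minus strand) are printed 5′ to 3′ on the strand of the gene, since they hold the repeat and both genes were called higher, with the repeat units in capitals.
Cyp26a1: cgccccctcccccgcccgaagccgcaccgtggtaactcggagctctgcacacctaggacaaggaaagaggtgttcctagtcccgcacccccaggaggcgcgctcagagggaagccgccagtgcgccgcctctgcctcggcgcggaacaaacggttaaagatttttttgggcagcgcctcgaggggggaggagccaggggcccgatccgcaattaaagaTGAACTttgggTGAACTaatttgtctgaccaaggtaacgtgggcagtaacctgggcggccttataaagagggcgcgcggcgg
Rarb: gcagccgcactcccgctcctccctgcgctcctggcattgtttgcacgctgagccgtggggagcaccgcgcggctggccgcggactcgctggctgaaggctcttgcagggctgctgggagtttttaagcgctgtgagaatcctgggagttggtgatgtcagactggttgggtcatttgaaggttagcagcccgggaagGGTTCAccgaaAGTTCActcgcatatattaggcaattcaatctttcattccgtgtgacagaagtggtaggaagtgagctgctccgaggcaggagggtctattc
In Cyp26a1 the repeat lies 32 to 16 bases before the start (chr19:37697776-37697792) and reads on the opposite strand.
Cyp26a1 repeat: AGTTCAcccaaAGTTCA
In Rarb it lies 53 to 37 bases before the start (chr14:16575513-16575529) on the strand of the gene.
Rarb repeat: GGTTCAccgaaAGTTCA

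Rbp4 gave raw signals of 9679 and 8675 in CKO-labelled yolk sacs, against 7774 and 8190 in control yolk sacs. After background correction and quantile normalization these became log2 signals of 13.27 and 12.97 in CKO-labelled yolk sacs, against 12.99 and 12.93 in control yolk sacs. The groups overlapped on that scale, with CKO replicate 2 between the control arrays and CKO replicate 1 above all others. The log2 difference was 0.16 ± 0.12 (SE, n = 2 a group; limma adjusted p = 0.375), with a 95% interval from -0.13 to 0.46. Leaving out CKO replicate 2 gave 0.31, leaving out CKO replicate 1 gave 0.02, and neither passed the test.

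Ttr had raw signals of 19097 and 20613 in CKO-labelled yolk sacs, against 18270 and 20341 in control yolk sacs. The normalized log2 signals were 14.22 and 14.25 in CKO-labelled yolk sacs, against 14.24 and 14.31 in control yolk sacs, so the groups overlapped. Their log2 difference was -0.03 ± 0.09 (SE, n = 2 a group; limma adjusted p = 0.823), with a 95% interval from -0.26 to 0.19, and its sign turned without control replicate 2. Ttr stood at 79.8% and 83.5% of the brightest probe's raw signal in CKO-labelled yolk sacs, against 78.6% and 87.0% in control yolk sacs. That is near the top of the measured range, and whether the signal still follows the transcript there was not tested.

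Stra6, the receptor gene of retinol uptake, was at the edge of detection. Its brighter probe read 120 and 146 in CKO-labelled yolk sacs, against 107 and 121 in control yolk sacs. Only CKO replicate 2 was above background, with a detection p-value of 0.0160. The dimmer probe read 104 and 117 in CKO-labelled yolk sacs, against 99.4 and 106 in control yolk sacs, none above background, and no fold is given for Stra6.

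Markers of visceral endoderm, the layer that secretes both carriers, had a median log2 difference of 0.05. Beside Rbp4 and Ttr, 14 of 17 were tested, of which 3 (the transcription factor genes Sox17 and Gata6 and the hedgehog ligand gene Ihh) were higher and 1, the apolipoprotein gene Apoe, was lower. Their summed normalized signal was 79022 to 80320 in CKO-labelled yolk sacs and 79554 to 81117 in control yolk sacs. The uncalled apolipoprotein gene Apoa1 adds most to these sums and is, like Ttr, near the top of the measured range. Sox17, Gata6 and Ihh are far dimmer, so the sums hardly follow them. Over all tested genes 14.4% were higher and 10.8% lower. Alb and Fgb were below background on all arrays. In whole tissue, fewer cells of a type and less RNA per cell cannot be told apart.

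Of the synthesis genes, Rdh10 was measured. It had raw signals of 166 and 176 in CKO-labelled yolk sacs, against 148 and 167 in control yolk sacs. The normalized log2 signals were 6.19 and 6.06 in CKO-labelled yolk sacs, against 6.09 and 6.26 in control yolk sacs, and the groups overlapped. Rdh10 differed on the log2 scale by -0.05 ± 0.11 (SE, n = 2 a group; limma adjusted p = 0.754), with a 95% interval from -0.31 to 0.20. Its sign turned under median scaling, at 0.06, and without CKO replicate 2 or control replicate 2.

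Aldh1a2, the main retinoic acid synthesis gene of the early embryo, was not above background on any array with either of its probes. The brighter one read 121 and 130 in CKO-labelled yolk sacs, against 104 and 120 in control yolk sacs. Its detection p-values were 0.0962 and 0.0919 in CKO-labelled yolk sacs, against 0.323 and 0.0897 in control yolk sacs. The dimmer probe read 105 and 111 in CKO-labelled yolk sacs, against 101 and 105 in control yolk sacs. The listed genes Aldh1a1, Aldh1a3, Aldh1a7 and Aldh8a1 were not above background on enough arrays to be tested either. Whether the genes of the step that makes retinoic acid differ between the groups was therefore not measured.

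Crabp2 had raw signals of 361 and 468 in CKO-labelled yolk sacs, against 214 and 218 in control yolk sacs, all above background. The normalized log2 signals were 8.10 and 8.36 in CKO-labelled yolk sacs, against 7.16 and 6.98 in control yolk sacs. Both CKO-labelled arrays stood above both control arrays, with means of 8.23 ± 0.18 for the CKO label and 7.07 ± 0.12 for control (SD, n = 2 each). The log2 difference was 1.16 ± 0.12 (SE; limma adjusted p = 0.00256), with a 95% interval from 0.86 to 1.46. It passed the test under all 13 alternative settings and was smallest, at 0.55, on the authors' processed values.

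Of the receptor genes, Rxra, which encodes the shared partner of the retinoic acid receptors, read 192 and 190 in CKO-labelled yolk sacs, against 157 and 158 in control yolk sacs. The normalized log2 signals were 6.64 and 6.31 in CKO-labelled yolk sacs, against 6.30 and 6.08 in control yolk sacs. The groups did not overlap, but CKO replicate 2 and control replicate 1 were nearly level. Rxra differed on the log2 scale by 0.29 ± 0.14 (SE, n = 2 a group; limma adjusted p = 0.188), with a 95% interval from -0.05 to 0.62. Rara, the retinoic acid receptor alpha gene, read 123 and 127 in CKO-labelled yolk sacs, against 105 and 114 in control yolk sacs, and was not above background on any.

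Cyp26a1 had raw signals of 174 and 206 with its brighter probe in CKO-labelled yolk sacs, against 116 and 135 in control yolk sacs. Both CKO-labelled arrays were above background. Of the control arrays replicate 2 was, with a detection p-value of 0.0171, and replicate 1 was not, with a detection p-value of 0.0694. The normalized log2 signals were 6.34 and 6.54 in CKO-labelled yolk sacs, against 5.01 and 5.46 in control yolk sacs. Both CKO-labelled arrays stood above both control arrays, with means of 6.44 ± 0.14 for the CKO label and 5.23 ± 0.31 for control (SD, n = 2 each). The log2 difference was 1.21 ± 0.16 (SE; limma adjusted p = 0.00456), with a 95% interval from 0.82 to 1.60.

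Cyp26a1 signals were close to background, and the size of the difference changed with the setting. It was 0.75 with an offset of 50, 0.46 with no background correction and 0.24 on the authors' processed values, with the call held in each. Under these settings, and without control replicate 1, it was smaller than the difference of Crabp2. A filter of detection p under 0.01 on all 4 arrays left the gene untested. The dimmer Cyp26a1 probe read 113 and 111 in CKO-labelled yolk sacs, against 103 and 105 in control yolk sacs, and was never above background, so the call rests on 1 probe.

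**Figure D2:**
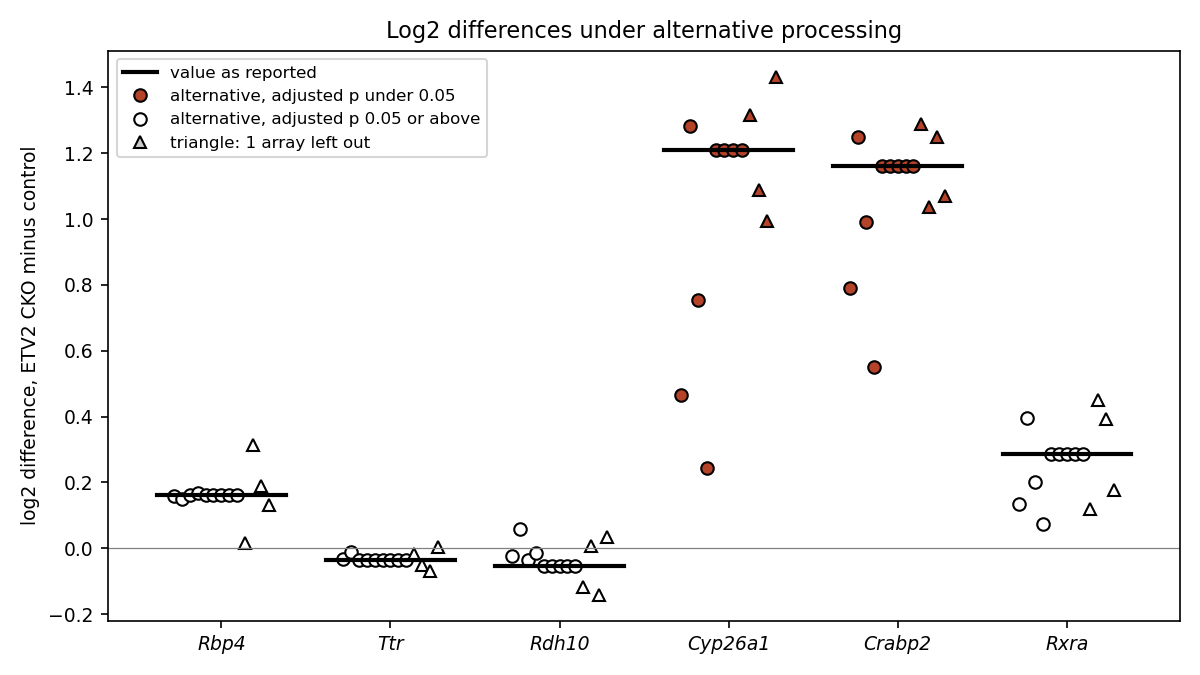
Log2 difference, ETV2 CKO minus control, of the 6 tested genes under the main setting and each alternative. Crabp2 and Cyp26a1 stay above 0 throughout, between 0.55 and 1.29 for Crabp2 and between 0.24 and 1.43 for Cyp26a1, while Rdh10 and Ttr fall on both sides of 0.

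The profile of Cyp26a1 over the 4 arrays was closest to those of Ugt2b36, a glucuronosyltransferase gene, Serpinb6c, a serpin gene, and Phf12, a PHD finger gene. The measure was the Euclidean distance of mean-centred normalized log2 signals over 4 arrays, which was 0.0394 for Ugt2b36, 0.116 for Serpinb6c and 0.138 for Phf12 among 10602 genes. Their own log2 differences were 1.22 for Ugt2b36, 1.18 for Serpinb6c and 1.12 for Phf12. That these lie near the 1.21 of Cyp26a1 follows from the choice by distance over the same arrays and is not a separate result.

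Beyond these genes, 72 others of the retinoid pathway were listed, of which 64 had a probe and 41 were tested. Of the 41, 9 (22.0%) were higher and 4 (9.76%) lower, beside 14.4% and 10.8% of all tested genes. Their median log2 difference was 0.10, and it lay between 0.035 on the authors' processed values and 0.15 under median scaling over the 13 alternatives, with 0.064 when CKO replicate 1 was left out. Of the 41, 5 were above background on 1 control array only and 1, the homeobox gene Hoxa4, on none.

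Among genes listed with carriers and uptake 1 of 4 was higher, the cellular retinol-binding protein gene Rbp2. Its product, best known from the gut, binds retinol inside cells, unlike the products of Rbp4 and Ttr. Rbp2 read 672 and 806 in CKO-labelled yolk sacs, against 270 and 239 in control yolk sacs. Both CKO-labelled arrays stood far above the control arrays, a log2 difference of 1.83 ± 0.16 (SE, n = 2 a group; limma adjusted p = 0.00143), with 1.77 from a further probe. It was 1.10 on the authors' processed values. Cubn, which encodes an endocytic receptor of the yolk sac endoderm, differed by 0.03 and did not pass (limma adjusted p = 0.883), nor did the uptake receptor gene Lrp2 at 0.19, named after its value was seen (limma adjusted p = 0.185). Lrp2 passed on the authors' processed values and with the trended, robust form of limma (limma adjusted p = 0.0300 and 0.0318).

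Of 14 tested genes listed with synthesis, which takes in enzymes that supply or reduce retinaldehyde, 1 was higher and 3 lower, with a median log2 difference of -0.11. The 4 called genes have different roles, as given for each. Adh1, an alcohol dehydrogenase gene whose product can oxidise retinol, read 216 and 244 in CKO-labelled yolk sacs, against 313 and 349 in control yolk sacs. Its groups were apart, with a log2 difference of -1.01 ± 0.09 (SE, n = 2 a group; limma adjusted p = 0.00156). Rdh12, whose product mainly reduces retinaldehyde to retinol, the reverse of synthesis, read 528 and 514 in CKO-labelled yolk sacs, against 665 and 736 in control yolk sacs. It differed by -0.64 ± 0.12 (limma adjusted p = 0.0130). Bco1, whose product cleaves beta-carotene to retinaldehyde, read 426 and 540 in CKO-labelled yolk sacs, against 666 and 597 in control yolk sacs. CKO replicate 2 and control replicate 2 lay nearest to each other. Bco1 differed by -0.62 ± 0.15 (limma adjusted p = 0.0263), a call lost when either array numbered 1 was left out and with no filter on detection. Bco2, which encodes an enzyme that cleaves carotenoids off-centre, was higher by 0.87 ± 0.09 (limma adjusted p = 0.00270), with 157 and 170 in CKO-labelled yolk sacs, against 117 and 126 in control yolk sacs. Of its control signals 1 was above background. On the authors' processed values Adh1 differed by -0.45 and Bco2 by 0.15. The brightest gene that did not pass, Rdh11, differed by -0.18. Dhrs3, a retinaldehyde reductase gene, was not above background on the CKO-labelled arrays and did not pass (limma adjusted p = 0.0918; named after its value was seen). Its raw signals were 124 and 132 in CKO-labelled yolk sacs, against 121 and 127 in control yolk sacs. The normalized log2 difference was -0.25, but -0.08 with no background correction and -0.04 on the authors' processed values, so no fold is given.

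In the breakdown group Cyp2s1, a cytochrome P450 gene reported to metabolise retinoic acid in human cells, read 2347 and 2528 in CKO-labelled yolk sacs, against 1009 and 1122 in control yolk sacs. All 4 signals were far above background. Cyp2s1 differed on the log2 scale by 1.20 ± 0.09 (SE, n = 2 a group; limma adjusted p = 0.000908), and it stayed between 1.09 and 1.24 under all 13 alternatives. Of the other groups, the ester storage gene Dgat1 (0.15) and the lipid-binding protein gene Fabp5 (0.14) did not pass, and 0 of 2 storage genes and 0 of 1 binding gene were called.

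Of 4 further receptor genes 2 were higher, where 14.4% of all tested genes were, and both were above background on 1 control array only. Rarb, the retinoic acid receptor beta gene, read 166 and 189 in CKO-labelled yolk sacs, against 115 and 125 in control yolk sacs. Its promoter window and that of Cyp26a1 each held a repeat with 5 bases between the units, spelled differently and on different strands relative to the gene. Both CKO-labelled arrays lay above both control arrays. The log2 difference was 1.19 ± 0.10 (SE, n = 2 a group; limma adjusted p = 0.00127), with 1.14 from a further probe, and it was 0.22 on the authors' processed values. Rarg, the gamma receptor gene, was higher by 0.52 ± 0.15 (limma adjusted p = 0.0478), with 151 and 156 in CKO-labelled yolk sacs, against 125 and 123 in control yolk sacs. Its call was lost in 7 of 12 alternatives, among them those that left out either CKO array or control replicate 2. Rxrb differed by 0.10 and Ep300, the brightest of 3 cofactor genes of which 0 were called, by 0.11.

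Of 12 genes known as retinoic acid targets in other settings 4 were higher and 1 lower, beside 14.4% and 10.8% of all tested genes, with a median log2 difference of 0.24. Lefty1, which encodes a Nodal inhibitor, was higher by 1.10 ± 0.09 (SE, n = 2 a group; limma adjusted p = 0.00118), with raw signals of 257 and 284 in CKO-labelled yolk sacs, against 157 and 166 in control yolk sacs. The homeobox gene Hoxb5 was higher by 0.70 ± 0.11 (limma adjusted p = 0.00627), with 493 and 613 in CKO-labelled yolk sacs, against 337 and 349 in control yolk sacs. Ripply3, a transcriptional repressor gene, was lower by a log2 difference of -1.08 ± 0.09 (limma adjusted p = 0.00124), with 192 and 216 in CKO-labelled yolk sacs, against 273 and 306 in control yolk sacs. On the authors' processed values these were 0.36 for Lefty1, 0.43 for Hoxb5 and -0.42 for Ripply3, all 3 still called. The homeobox gene Meis1 (0.49) and Rarres2 (0.43), which encodes the secreted protein chemerin, were called higher, but Meis1 lost its call without CKO replicate 2 and without either control array, and Rarres2 lost its call without any 1 of the 4 arrays, with no background correction and on the authors' processed values. Tgm2, which encodes transglutaminase 2, differed by -0.13 and did not pass.

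**Figure D3:**
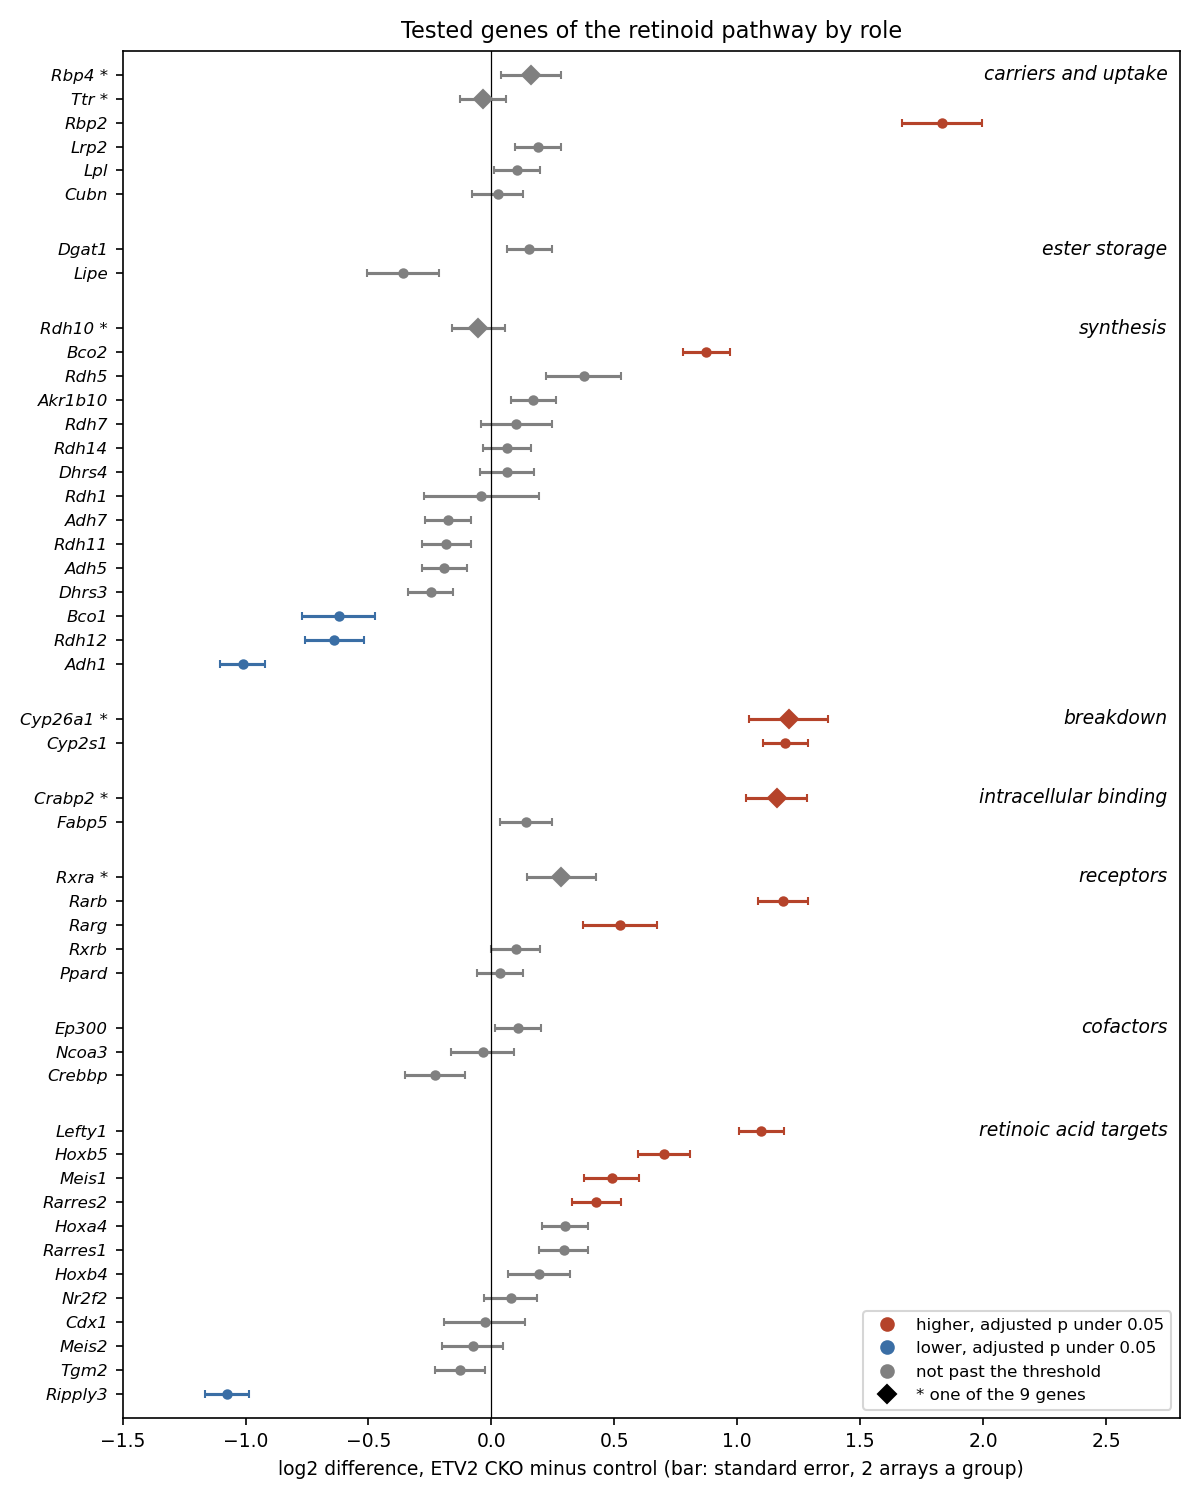
Log2 difference, ETV2 CKO minus control, with its standard error for each tested gene of the retinoid pathway, grouped by role. Dhrs3, not above background on the CKO-labelled arrays, and Hoxa4, not on the control arrays, are plotted at their fitted values. These values rest in part on signals not above background. Genes past the threshold stand on both sides of 0 in the synthesis and target groups. They stand above 0 in the carrier, breakdown, intracellular binding and receptor groups. In the carrier group the only such gene is Rbp2, whose product binds retinol inside cells.

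Markers of other cell types moved with the groups beside Crabp2, Cyp26a1 and the other calls. Beside the counts given here, 14.4% of all tested genes were higher and 10.8% lower. Of the parietal endoderm markers 10 of 12 tested were higher, with summed signals of 42985 to 43566 in CKO-labelled yolk sacs and 31198 to 31449 in control yolk sacs. Among the 10 were the laminin genes Lama1, Lamb1 and Lamc1 and the collagen genes Col4a1 and Col4a2. Thbd (-0.12) and Dab2 (-0.22) had differences below 0 and were not called. Mesothelium and mesenchyme markers were higher for 10 of 16, with sums of 32456 to 32857 in CKO-labelled yolk sacs and 25728 to 26065 in control yolk sacs. Of the 16, 1 had a difference below 0, Upk3b (-0.26, not called). Msln and Postn were below background, and Wt1 had no probe. Cardiac muscle markers were higher for 6 of 7, with sums of 2000 to 2177 in CKO-labelled yolk sacs and 941 to 972 in control yolk sacs, and Myh7 and Nkx2-5 were below background. Of the 6, Myl2, Myl7 and Nppa were above background on no control array and entered the test through the CKO-labelled arrays alone. Trophoblast giant cell markers were higher for 4 of 5 and lower for 1, Prl4a1 (-0.66), and Ctsq, Psg16 and Tpbpa were below background. Their sums were 1575 to 1737 in CKO-labelled yolk sacs and 372 to 411 in control yolk sacs. The related genes Prl2c2 and Prl2c3 add most to the sums of the CKO-labelled arrays. Hand1, called higher, is also counted with mesothelium and mesenchyme. Of the 4, Prl8a2 was above background on no control array and entered the test through the CKO-labelled arrays alone. Erythroid markers were lower for 7 of 11, with a median log2 difference of -0.54, among them the transferrin receptor gene Tfrc (-1.71) and the transcription factor gene Klf1 (-1.19). Their sums, to which 4 bright globin genes that did not pass add most, were 99372 to 99601 in CKO-labelled yolk sacs and 108232 to 108300 in control yolk sacs. Among these globin genes, Hba-a1 was the brightest probe on each control array, with raw signals of 23252 and 23388. Whether globin signals near the top of the measured range still follow the transcript was not tested. Endothelial markers were higher for 2 and lower for 4 of 11, with sums of 9888 to 9986 in CKO-labelled yolk sacs and 10076 to 10170 in control yolk sacs. None of 11 neural and somite markers was tested, 9 of them being below background on all arrays. The part of any of these cell types in the differences of the retinoid genes was not tested.

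**Figure D4:**
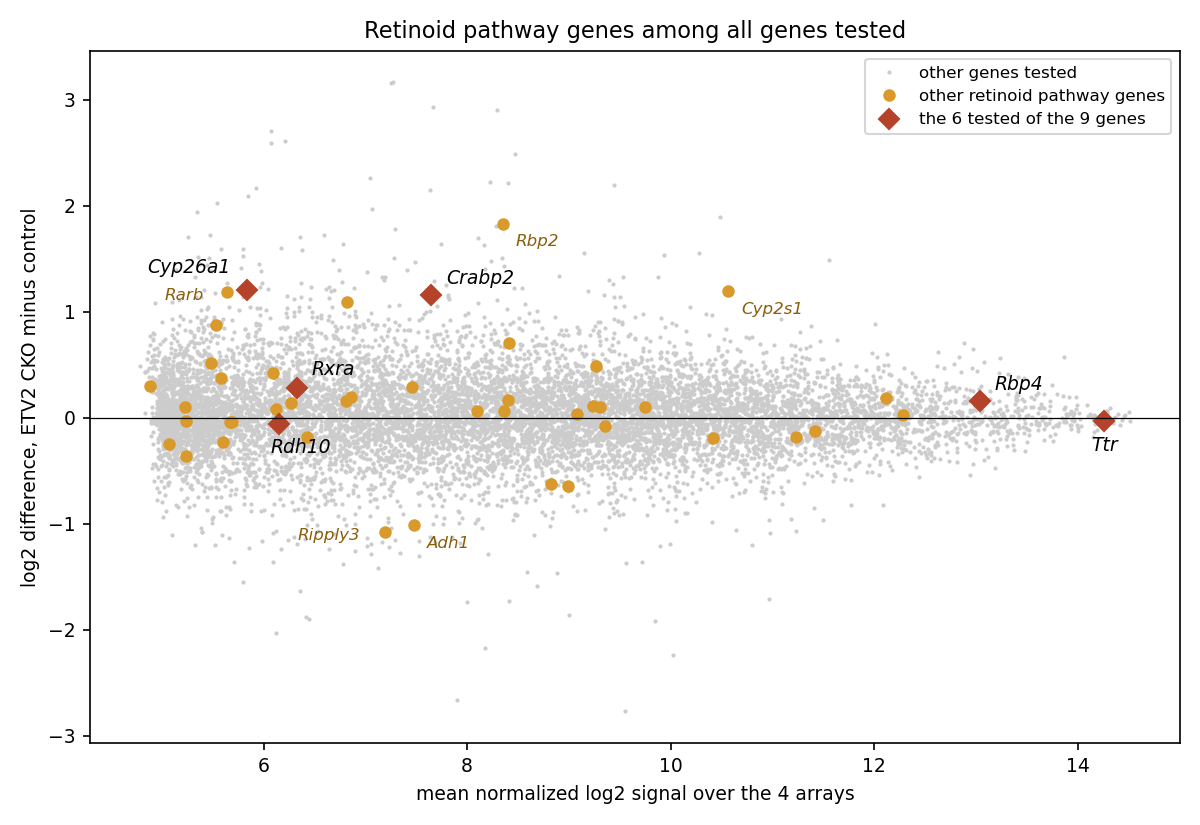
Log2 difference, ETV2 CKO minus control, against mean normalized log2 signal for all 10603 tested genes, with the 6 tested retinoid genes and the 41 other tested pathway genes marked. Cyp26a1 lies at the dim end of the signal range, Rbp4 and Ttr at the bright end near 0.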

How the data were processed

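The non-normalized signal table that was deposited holds, per the file headers, a linear intensity and a detection p-value for each of 4 arrays. A deposited table of processed intensity values, with a median of 201.4 on each array, served as an alternative. The submitters' processing notes list lumi 2.15.1 with no role, and the sources used here name no other step. Of 45281 probes 34885 carry 1 symbol, 18 several and 10378 none here.

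Signals were treated with neqc of limma 3.58.1 in R 4.3.3 (background from the detection p-values, offset 16, quantile normalization, log2). Probes with detection p under 0.05 on at least 2 of 4 arrays were kept (18817), and the brightest kept probe stood for its gene. Groups were compared with lmFit and eBayes, 2-sided, with Benjamini-Hochberg adjustment over 10603 genes at 0.05. The test had 6.54 degrees of freedom and a median standard error of 0.105. Only the limma fit was tested on simulated log2 signals, whose spread did not depend on brightness. The background correction, the detection filter and the choice of probe were not, so dim signals near background were not covered. An exact permutation test of 2 against 2 arrays cannot give a 2-sided p below 0.333. The number of arrays limits the precision. Differences are CKO-labelled minus control, and the offset shrinks those of dim genes. Replicates correlated at 0.996 across genes in both groups.

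The genes and lists were chosen with earlier results of these data known. Named genes are the 9 genes, every called pathway gene, the brightest uncalled one of each role, Etv2 and the 3 nearest profiles to Cyp26a1, the gene of largest log2 difference among the 9 in the main setting. Cell type markers, Kdr, the sex-linked genes, Hoxa4, Lrp2 and Dhrs3 are named outside this rule, after their values were seen. The alternatives were 13 settings of background, scaling, offset, source, filter, probe, fit and left-out arrays. Promoters come from RefSeq windows of GRCm38.p6; the build of the array design is not given in the sources used here.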

Additional observations from a re-analysis of the deposited data

How the results depend on the processing

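Crabp2 stayed past the threshold under all 13 alternatives and Cyp26a1 under the 12 that tested it; a detection p under 0.01 on all 4 arrays left Cyp26a1 out, and 1 of these genes was then called higher. With 1 array left out, Crabp2 ranged from 1.04 to 1.29, Cyp26a1 from 0.99 to 1.43, Rbp4 from 0.02 to 0.31 and Rxra from 0.12 to 0.45. The Rdh10 difference turned to 0.059 under median scaling and ranged from -0.14 to 0.033 with 1 array left out (0.0075 without CKO replicate 2, 0.033 without control replicate 2). Ttr ranged from -0.070 to 0.0035 (0.0035 without control replicate 2), and Cubn ranged from -0.039 to 0.095, turning to -0.037 without CKO replicate 2 and -0.039 without control replicate 1. The cause of these turns was not tested. With 1 array left out, 722 to 964 of all genes were higher and 522 to 633 lower, fewer samples being fitted. Median scaling gave 1534 higher and 649 lower genes, 70.3% of calls being higher against 57.2% in the main setting, and a median over all genes of 0.07. The median of the 6 tested genes ranged from 0.068 without CKO replicate 1 to 0.38 without CKO replicate 2. The pathway counts stayed between 6 and 10 higher and between 3 and 5 lower. The labels number the replicates alike in both groups. Same-numbered arrays deviated together with a correlation of only 0.066 across genes, with 2 pairs, so the numbers were not taken as pairs. With the replicate block, 1561 genes were higher and 1164 lower, 2 of the 9 genes and 9 and 4 pathway genes were called as before, and the limma adjusted p was 0.00777 for Crabp2, 0.00509 for Cyp26a1 and 0.078 for Rxra. Signal over background limits Cyp26a1, Rarb, Rarg and Bco2, each above background on 1 control array, and left Stra6, Aldh1a2 and Rara untested.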

Other observations

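The repeat with 5 bases between its units stood in the windows of 31 genes, 5 of which were tested. Beside Cyp26a1 and Rarb, Blvrb, which encodes biliverdin reductase B, was lower with a log2 difference of -0.54 (limma adjusted p = 0.00859, n = 2 a group). The embryonic globin gene Hbb-y, whose signal was near the top of the measured range, differed by 0.02 and the chemokine gene Ppbp by 0.34, and neither passed. These genes were chosen after their values were seen, and the repeat thus stood beside called genes of both directions.

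In the window of Bco1, lower on the CKO-labelled arrays, a repeat with 1 base between the units lay 56 to 44 bases before the start (chr8:117095809-117095821, GRCm38.p6), on the strand opposite to the gene.
Bco1 repeat: AGGTCAaAGGTCA
Of all windows 0.222% held a repeat of that spacing, and of all genes with a window 0.263% did. Bco1 was the 1 gene of the 52 pathway genes with a window that did.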
